A study of Mus musculus with 9 samples.

Results

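The 9 genes described here are Ins1, Ins2, Iapp, G6pc2, Slc30a8, Mafa, Nkx6-1, Pdx1 and Ucn3, the insulin genes and other genes by which pancreatic islet beta cells are recognised. They were chosen by symbol, and all 9 were found among the 35013 gene symbols of both deposited tables of normalized counts. The mRNA came from small intestinal epithelial cells sorted from NFKO mice (Neurog3Cre-FoxO1 f/f; Rosa26tdtomato) aged 4 to 6 weeks, with 3 replicates each of CD24negTomato+, CD24+Tomato+ and Tomatoneg cells. Neurog3Cre acts in endocrine progenitors, so that Tomato marks cells descended from them, in which the floxed FoxO1 alleles are also recombined. Tomatoneg cells came from mice of the same genotype without having turned on the reporter, and CD24 is a surface protein used to divide the Tomato+ cells. No library of FoxO1-intact Tomato+ cells is among the samples, so each comparison sets marked against unmarked cells and the effect of FoxO1 loss cannot be told apart from lineage. The labels call the libraries biological replicates. Neither they nor the methods say how many mice went into a library or whether same-numbered libraries share mice, so P values measure the spread between these libraries.

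Beta cells make insulin from preproinsulin, which is folded in the endoplasmic reticulum, cut by prohormone convertases and stored with zinc in dense-core granules. Glucose that enters the cell is burned, ATP closes a potassium channel, and the calcium that then flows in releases the granules. Mice carry a pair of insulin genes, Ins1 and Ins2. In the healthy adult intestine, hormone release is the task of enteroendocrine cells, which share much of the granule machinery and several transcription factors with islet cells but do not normally make insulin.

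The insulin genes are shown first by sequence, because their similarity bears on how their reads are assigned. Ins1 lies on chromosome 19 (GRCm38, chr19:52264297-52265476, plus strand, 2 exons) and Ins2 on chromosome 7 (chr7:142678656-142743381, minus strand), where the main transcript, Ins2-201, has 3 exons (chr7:142678659-142679726). Their coding sequences of 327 and 333 bases in GENCODE M21 were identical at 302 of 327 aligned bases, or 92.4%. The longest identical stretch, of 56 bases, lies in exon 2 of Ins1 (chr19:52264894-52264949) and in exon 3 of Ins2 (chr7:142678714-142678769), near the end of the coding sequence.
Ins1 and Ins2 shared stretch: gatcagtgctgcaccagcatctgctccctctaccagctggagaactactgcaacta
Kallisto assigns reads by words of 31 bases, its default length. Of these words, 47 occur in both main transcripts, which is 4.6% of the words of Ins1-201 and 10.5% of those of Ins2-201. Reads that fall on the shared words are divided between the genes by estimation, so each gene's value is somewhat uncertain. Most words of each main transcript were not found in the other insulin gene, and transcripts of further genes were not searched.

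Sequence upstream of the annotated start was taken from RefSeq (GRCm38.p6), where 6 of the 9 genes had an entry, and 250 bases are shown for the genes on which the comparisons below turn. Capitals mark the letters TAAT, a core bound by homeodomain factors such as Pdx1, and CATCTG, an E box, each read on either strand.
Ins1 (chr19:52264047-52264296, plus strand): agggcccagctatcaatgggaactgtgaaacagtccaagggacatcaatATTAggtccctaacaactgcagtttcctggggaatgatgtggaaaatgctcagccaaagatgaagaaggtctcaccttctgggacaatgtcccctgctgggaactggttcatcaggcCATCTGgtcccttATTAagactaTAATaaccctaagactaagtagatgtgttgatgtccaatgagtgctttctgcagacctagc
Iapp (chr6:142298175-142298424, plus strand): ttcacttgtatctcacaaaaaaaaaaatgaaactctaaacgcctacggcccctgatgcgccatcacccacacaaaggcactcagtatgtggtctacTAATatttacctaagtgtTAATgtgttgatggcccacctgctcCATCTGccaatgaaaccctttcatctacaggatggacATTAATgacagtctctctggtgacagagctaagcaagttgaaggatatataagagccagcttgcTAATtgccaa
Ucn3 (chr13:3945350-3945599, minus strand): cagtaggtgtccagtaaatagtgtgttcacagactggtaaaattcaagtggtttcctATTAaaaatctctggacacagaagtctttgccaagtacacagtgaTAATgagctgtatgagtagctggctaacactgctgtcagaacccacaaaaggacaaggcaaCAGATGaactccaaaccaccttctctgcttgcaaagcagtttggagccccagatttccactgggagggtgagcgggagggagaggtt
The window of Ins1 held TAAT 3 times, that of Iapp 5 times, of which 1 pair shares letters, and that of Ucn3 2 times, and each held CATCTG 1 time. G6pc2 held TAAT 3 times and CATCTG 2 times. The windows of Pdx1 and Nkx6-1 held neither, but their RefSeq starts differ from the GENCODE starts (chr5:147269959 and chr5:101664996). By GENCODE, the Pdx1 window lies partly and the Nkx6-1 window wholly inside the transcript. These 2 windows therefore do not describe the sequence upstream of the GENCODE starts. Of 32851 mouse upstream windows of this length, 54.9% held TAAT and 14.4% held CATCTG. The letters TGCTGA, a part of the Maf recognition element, occurred 2 times in the window of G6pc2 and 1 time in that of Nkx6-1, and in 16.1% of all windows. GTAAACA, a forkhead site of the kind FoxO proteins bind, was in none of the 6 windows and in 3.2% of all windows. These matches describe letters and were not tested as binding sites.

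The estimated depth ran from 29962630 to 37133889 reads per CD24negTomato+ library, from 27723742 to 39234462 per CD24+Tomato+ library and from 19158348 to 24368832 per Tomatoneg library. At 3 reads, the limit of detection was a normalized count of 2.10 to 2.92 in Tomato+ and of 3.23 to 4.29 in Tomatoneg libraries, a limit that covers counting error only. Tomatoneg replicate 1 stood apart. It had 13025 genes above 0, the fewest of the 9 libraries, and 21 genes listed at 0 that had at least 100 normalized counts in each of the 8 other libraries, among them the widely expressed Snapc1 and Arl16. None of the 8 others had such a gene. A 0 in that library is therefore given as listed at 0 and not as absence. Limma fold changes of those of the 9 genes listed at 0 there are given with and without it. The targeted gene, Foxo1, had 467, 274 and 371 normalized counts in replicates 1, 2 and 3 of CD24negTomato+ cells, against 695, 518 and 424 in the Tomatoneg libraries of the same table (log2 fold change -0.56, limma adjusted P = 0.427). In CD24+Tomato+ libraries it had 319, 193 and 201, against 748, 529 and 444 (log2 fold change -1.27, limma adjusted P = 0.0579, and 0.0220 once the replicate number was blocked). It was lower in each of the 3 same-numbered pairs of both comparisons. The gene-level value also counts exons outside a deleted part, which the labels do not define.

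In CD24negTomato+ cells, both insulin genes lay above their Tomatoneg values but were uneven. Ins2, the gene with the higher value in every library where insulin was above 0, measured 269, 614 and 5471 across CD24negTomato+ replicates 1 to 3 and 0, 90.6 and 70.6 across the Tomatoneg ones, in normalized counts. Ins1 had 62.9, 234 and 2871, against 0, 43.3 and 24.4. For each gene the lowest CD24negTomato+ library lay above the highest Tomatoneg library, and replicate 3 held most of the group's count. Tomatoneg replicates 2 and 3 were above the limit of detection for both genes, so insulin transcripts were also measured in libraries of unmarked cells. Whether the unmarked cells themselves made them was not tested.

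The log2 fold change in CD24negTomato+ cells was 5.69 for Ins2 (95% confidence interval 1.44 to 9.94) and 5.08 for Ins1 (0.98 to 9.17), on the log2(normalized count + 1) scale used throughout. Neither passed the threshold of 0.05 (limma adjusted P = 0.174 and 0.204). In the fit that pairs libraries by replicate number (the block), limma gave an adjusted P of 0.0308 and 0.0359. The differences within pairs 1, 2 and 3 were 8.08, 2.75 and 6.26 for Ins2, and 6.0, 2.41 and 6.82 for Ins1, so every pair went the same way and pair 2 differed least. Without Tomatoneg replicate 1, the library listed at 0 for both, the fold changes were 3.58 and 3.39 (limma adjusted P = 0.0939 and 0.160). Without CD24negTomato+ replicate 3, the highest library, they were 4.44 and 3.56 (limma adjusted P = 0.382 and 0.420).

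Among the 9 genes in CD24negTomato+ cells, 7 passed the filter of a mean normalized count of at least 10, all with a positive fold change. G6pc2, Nkx6-1 and Ucn3 had Tomatoneg means under it (5.2, 7.2 and 2.1). They entered only through their CD24negTomato+ libraries, so their positive sign is no separate result. In limma, 0 of 7 passed the threshold, against 1.32% of the 13420 genes tested (0.999% higher and 0.32% lower). Before adjustment, 3 of 7 had a limma P under 0.05, as did 10.3% of all tested genes in the higher direction. With the block, 3 of 7 (Ins1, Ins2 and Ucn3) passed, against 7.3% of all genes tested (4.34% higher). The median fold change of the 7, 2.41, was that of G6pc2, which is listed at 0 in Tomatoneg replicate 1. The median of all tested genes was 0.08. The groups did not overlap for Ins1, Ins2, Nkx6-1 and Ucn3 among the 7, nor for Slc30a8 below the filter, and 14.7% of all tested genes were higher without overlap.

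**Figure D1:**
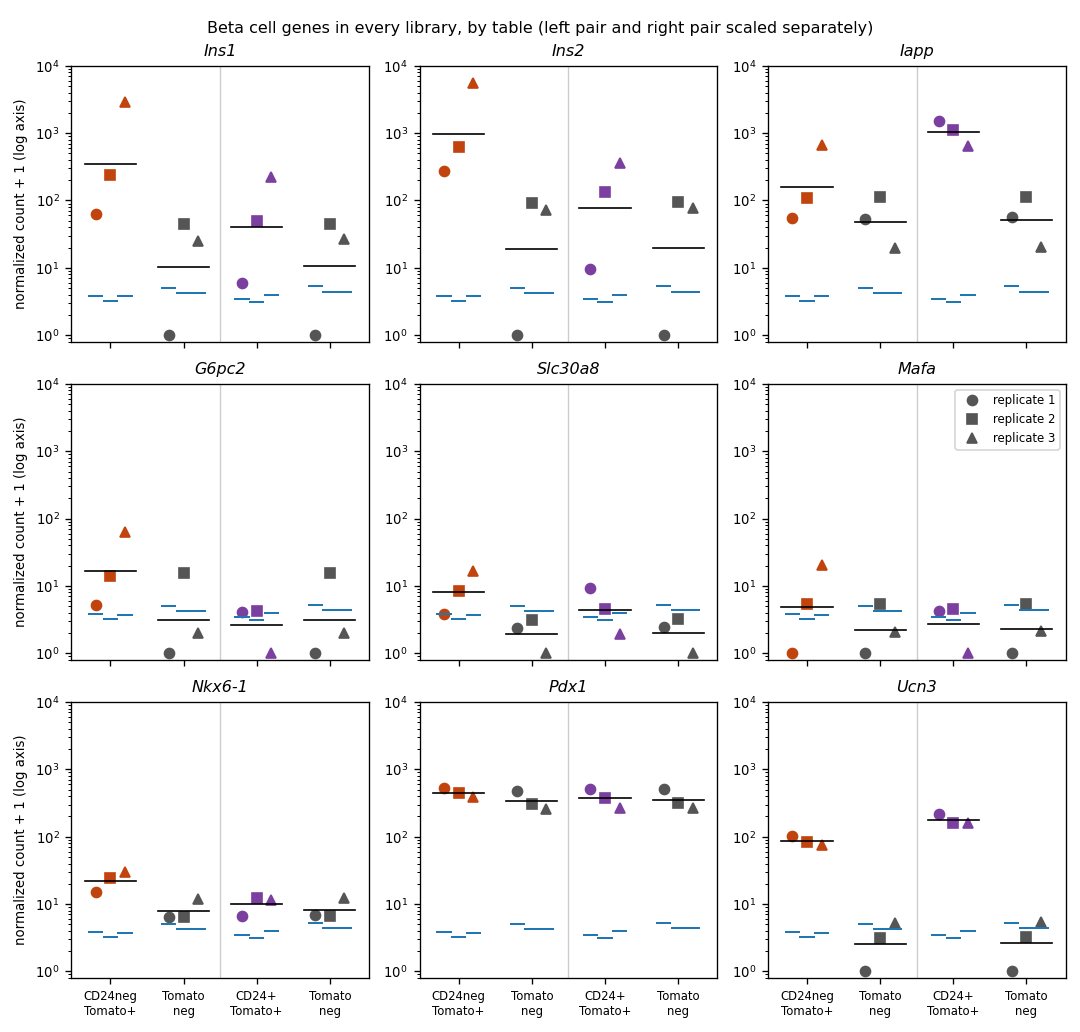
Normalized counts plus 1 (log axis) of the 9 genes in every library. Circles, squares and triangles are replicates 1, 2 and 3, black lines are means of the log2 values of 3 libraries, and short blue lines mark each library's limit of detection at 3 reads. The left pair of groups in a panel comes from one table and the right pair from the other. Ins1 and Ins2 spread from 62.9 to 2871 and from 269 to 5471 in CD24negTomato+ libraries, whereas Ucn3 stays between 74.2 and 101 there and Pdx1 lies between 257 and 534 in all groups.

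Of the secreted peptides, Ucn3 was the most even. Ucn3 encodes urocortin 3, a peptide that mature mouse beta cells release with insulin and that prompts somatostatin release from delta cells. Its normalized counts were 101, 83.6 and 74.2 in the CD24negTomato+ group and 0, 2.17 and 4.27 in the Tomatoneg group, where 1 of 3 libraries was above the limit of detection. The groups lay far apart, and the log2 fold change was 5.08 (95% confidence interval 2.90 to 7.26), with a limma adjusted P of 0.0512, and of 0.0423 with the block. Without Tomatoneg replicate 1 it was 4.40 (limma adjusted P = 0.0123). Replicate 3 held 28.7% of the group's Ucn3 count, whereas it held 86.1% of Ins2, so the library that was richest in insulin was the lowest in Ucn3.

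Iapp encodes amylin, which beta cells store and release together with insulin and which some enteroendocrine cells also make. In CD24negTomato+ libraries it had 53.3, 108 and 657 normalized counts, against 51.3, 111 and 18.6 in Tomatoneg. Pairs 1 and 2 were nearly equal (differences of 0.06 and -0.03 on the log2 scale) and replicate 3 alone stood high. The log2 fold change of 1.70 had a 95% confidence interval of -0.69 to 4.08 (limma adjusted P = 0.433). Without CD24negTomato+ replicate 3 it was 0.67 (limma adjusted P = 0.769).

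The genes for glucose handling and zinc transport were low. G6pc2, the islet glucose-6-phosphatase subunit, had 4.21, 13.2 and 61.8 normalized counts, against 0, 14.5 and 1.02 in Tomatoneg libraries (log2 fold change 2.41, limma adjusted P = 0.453). Without Tomatoneg replicate 1 its fold change was 1.58 (limma adjusted P = 0.451). Without CD24negTomato+ replicate 3 it fell below the filter. Slc30a8, the transporter that fills insulin granules with zinc, had 2.83, 7.42 and 15.5, against 1.34, 2.16 and 0. All 3 Tomatoneg values of Slc30a8 were below the limit of detection. Its lowest CD24negTomato+ value, in replicate 1, lay at that library's limit of 2.83. The groups did not overlap, with an exact two-sided permutation P of 0.1, the smallest that 3 against 3 libraries allow. That lack of overlap rests on values at or below the limit.

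Of the transcription factors, Pdx1 was expressed throughout. Pdx1, a homeodomain factor needed for the pancreas, for insulin transcription and also for the duodenum, had 534, 440 and 386 normalized counts, against 481, 305 and 257 in Tomatoneg libraries. The groups overlapped, and the log2 fold change was 0.42 (95% confidence interval -0.37 to 1.21, limma adjusted P = 0.551), so that a rise above 1.21 lay outside the interval. Nkx6-1, a repressor that keeps beta cell identity, had 14.2, 23.7 and 28.4, against 5.35, 5.43 and 10.7. It was higher in each pair, by 1.26, 1.94 and 1.33 on the log2 scale, yet did not pass the test (log2 fold change 1.51, limma adjusted P = 0.410). Mafa, an activator of the insulin genes in mature beta cells, had 0, 4.46 and 19.3, against 0, 4.35 and 1.07 (exact two-sided permutation P = 0.5).

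Replicate 3 held 90.6% of the CD24negTomato+ count of Ins1, 86.1% of Ins2, 81.2% of Mafa, 80.3% of Iapp, 78.0% of G6pc2 and 60.2% of Slc30a8. It held 42.9% of Nkx6-1, 28.7% of Ucn3 and 28.4% of Pdx1. In bulk libraries, fewer cells of a type and less RNA per cell cannot be told apart, and the same holds for more cells and more transcript per cell in replicate 3.

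In CD24+Tomato+ cells, Iapp passed the threshold. So did Ucn3, which was tested only because its CD24+Tomato+ libraries were high (Tomatoneg mean 2.2). Iapp had 1517, 1128 and 636 normalized counts in replicates 1, 2 and 3, and 55.4, 113 and 19.6 in Tomatoneg. The groups did not overlap, and Iapp rose with a log2 fold change of 4.33 (95% confidence interval 2.76 to 5.91, limma adjusted P = 0.00994). Ucn3 had 215, 159 and 159, against 0, 2.22 and 4.48, and rose with a log2 fold change of 6.09 (4.06 to 8.11, limma adjusted P = 0.00819). Without Tomatoneg replicate 1 the fold changes were 4.41 for Iapp and 5.40 for Ucn3 (limma adjusted P = 0.00987 and 0.00204). Without CD24+Tomato+ replicate 3 they were 4.68 and 6.16 (limma adjusted P = 0.0447 and 0.0526), so Ucn3 then missed the threshold. Without CD24+Tomato+ replicate 2 both missed it, at 4.27 and 6.16 (limma adjusted P = 0.0734 and 0.0734).

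The insulin genes did not pass the test in CD24+Tomato+ cells. Ins2 had 8.64, 135 and 358 normalized counts, against 0, 94.3 and 75.3 in Tomatoneg, and the groups overlapped. Its log2 fold change was 2.0 (95% confidence interval -2.74 to 6.74, limma adjusted P = 0.572), and it turned to -0.13 without Tomatoneg replicate 1 (limma adjusted P = 0.962). Ins1 had 5.0, 49.2 and 218, against 0, 44.4 and 25.7, with a log2 fold change of 1.92 (-2.31 to 6.16, limma adjusted P = 0.541), and of 0.22 without that library. These wide intervals do not show that CD24+Tomato+ and Tomatoneg cells held the same level.

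Of the remaining members in CD24+Tomato+ cells, Pdx1 had 514, 381 and 270 normalized counts, against 518, 312 and 270 (log2 fold change 0.09, 95% confidence interval -0.82 to 1.01, limma adjusted P = 0.904). Nkx6-1 had 5.73, 11.2 and 10.7, against 5.76, 5.55 and 11.2. The other 3 genes had at most 8.20 normalized counts in CD24+Tomato+ libraries. G6pc2 had 3.16, 3.23 and 0, against 0, 14.3 and 1.03. Slc30a8 had 8.20, 3.49 and 0.965, against 1.45, 2.21 and 0, and Mafa had 3.28, 3.50 and 0, against 0, 4.44 and 1.12. The groups overlapped for all 4 genes below the filter (Nkx6-1, G6pc2, Slc30a8 and Mafa), with exact permutation P values of 0.8, 1.0, 0.3 and 1.0.

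Of the 9 genes, 5 were tested in CD24+Tomato+ cells and 2 of 5 passed the threshold, both higher, against 12.9% of the 13874 genes tested (8.02% higher and 4.89% lower). With the block the same 2 passed, against 20.8% of all genes (10.8% higher). The median fold change of the 5, 2.0, was that of Ins2, which is listed at 0 in Tomatoneg replicate 1. The median of all tested genes was 0.16. Iapp and Ucn3 were higher without overlap, as were 21.6% of all tested genes. Ucn3 entered the filter only through its CD24+Tomato+ libraries (Tomatoneg mean 2.2), so its positive sign is no separate result.

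**Figure D2:**
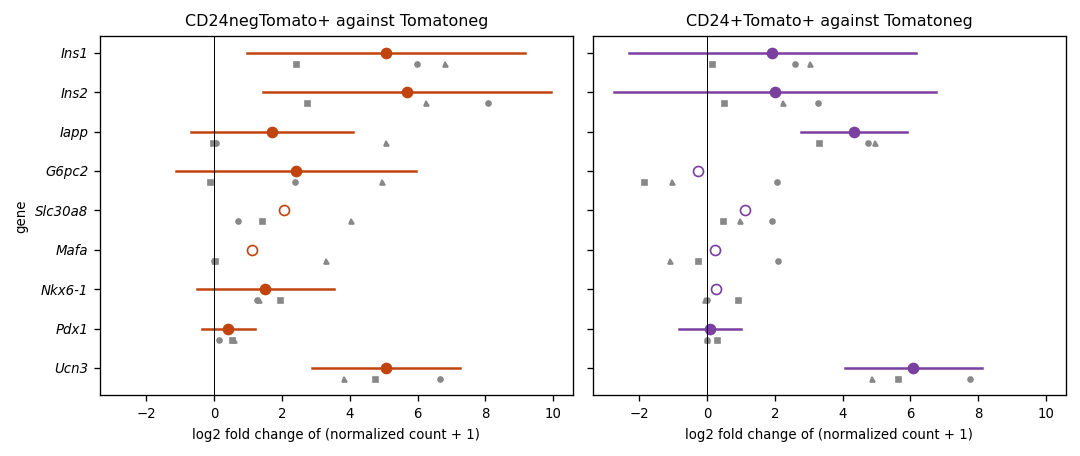
Log2 fold changes of (normalized count + 1) between Tomato+ and Tomatoneg libraries for each of the 9 genes. Filled points are limma estimates with lines for the 95% confidence interval, open points are differences of means for genes below the expression filter, and small grey circles, squares and triangles are the differences within pairs 1, 2 and 3. In CD24negTomato+ cells the estimates of Ins1, Ins2 and Ucn3 lie at 5.08, 5.69 and 5.08, and in CD24+Tomato+ cells those of Iapp and Ucn3 lie at 4.33 and 6.09.

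The tables were scaled separately, so the Tomato+ populations were set side by side as a level scaled to equal library totals (normalized counts per 1000000 of the library's sum), without a test. Ins2 had 9.53, 22.4 and 180 on this scale in CD24negTomato+ libraries and 0.382, 4.90 and 12.4 in CD24+Tomato+ libraries. It was thus higher in the CD24negTomato+ library of each number, although the ranges overlapped. Iapp went the other way, with 1.89, 3.95 and 21.7 in CD24negTomato+ and 67.1, 41.0 and 22.1 in CD24+Tomato+ libraries, close together only in replicate 3. Ucn3 had 3.56, 3.05 and 2.45 in CD24negTomato+ and 9.52, 5.77 and 5.53 in CD24+Tomato+ libraries, with no overlap. Both comparisons share the Tomatoneg libraries, so their fold changes are not independent of each other.

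Divided by transcript length, the order of the genes also differed between the populations. In CD24negTomato+ libraries the highest median level was that of Ins2 (1284 normalized counts per kilobase), followed by Ins1 (221), Pdx1 (204), Iapp (129) and Ucn3 (56.6). Ins2 was first in each of the 3 libraries, but its range (563 to 11440) overlapped that of Ins1 (59.2 to 2704), and the ranges of the neighbours from Ins1 to Ucn3 overlapped as well. In CD24+Tomato+ libraries Iapp came first (1345 per kilobase), and its lowest library (758) was above the highest of Ins2 (748), while Ins2 (282), Pdx1 (176) and Ucn3 (108) followed with Ins1 (46.3). In Tomatoneg libraries the medians in the first table were 148 for Ins2, 141 for Pdx1, 61.1 for Iapp and 23.0 for Ins1, with the ranges of neighbours overlapping. Nkx6-1, G6pc2, Slc30a8 and Mafa had medians of at most 7.56 per kilobase in every group. The ratio of Ins2 to Ins1 per kilobase was 9.50, 5.82 and 4.23 in CD24negTomato+, 3.84, 6.09 and 3.64 in CD24+Tomato+, and 4.65 and 6.42 in Tomatoneg replicates 2 and 3, ranges that overlapped. These levels used 1 GENCODE transcript a gene, and other lengths would move the order.

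The other genes of the pathway were taken from lists. Some list genes had Tomatoneg means under the filter of 10, among them Pcsk2, Snap25, Kcnj11, Glis3 and Ppy. They entered only through their Tomato+ libraries, so their positive sign is no separate result. The counts of rises below include such genes, as do the shares of all genes. Of 13 insulin processing and granule proteins, all tested, 7 rose and 0 fell in CD24negTomato+ cells (limma, 0.999% of all genes were called higher), and 11 rose with the block (4.34% of all genes). The median log2 fold change was 4.28. Of those past the threshold, the largest were secretogranins and chromogranins, which pack dense-core granules, with log2 fold changes of 5.73 for Scg2 (limma adjusted P = 0.00717), 4.64 for Chgb (0.0111) and 4.28 for Scg3 (0.00938). Scg2 had 5395, 9884 and 3152 normalized counts, against 153, 147 and 48.3. Replicate 2 was the highest CD24negTomato+ library for 11 of the 13. Pcsk2, the convertase that completes the cutting of proinsulin, peaked in replicate 3 as insulin did (52.2, 96.9 and 461 normalized counts, against 1.33, 13.0 and 8.58, limma adjusted P = 0.0986, and 0.0388 with the block), and Ero1b, an oxidase that helps proinsulin fold, was highest in replicate 1. Without Tomatoneg replicate 1, 11 of the 13 passed (7.88% of all tested genes did). Without CD24negTomato+ replicate 1, 2 or 3, 2, 3 and 6 did, beside 20, 18 and 45 of all genes.

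CD24+Tomato+ cells had rises in 12 of the 13 and falls in 0, with 12 rises also under the block, beside 8.02% and 10.8% of all tested genes. The median log2 fold change was 5.01. Ptprn, a granule membrane protein, had the largest log2 fold change, 7.03 (limma adjusted P = 0.0176), followed by Scg5, the chaperone of prohormone convertase 2, with 6.84 (0.0189) and Chgb with 5.87 (0.00152). Ptprn and Scg5 were listed at 0 in Tomatoneg replicate 1, without which they had 5.36 and 5.14 and 13 of 13 passed (17.8% of all tested genes did). Leaving out any 1 CD24+Tomato+ library left 8, beside 669, 168 and 329 of all genes without replicate 1, 2 or 3. These genes are also part of the enteroendocrine program. Of 11 enteroendocrine markers, 9 rose in CD24negTomato+ cells (0.999% of all genes did) and 11 in CD24+Tomato+ cells (8.02%). The 11 markers share Chga and Chgb with the granule list, Neurod1 with the transcription factors and Gcg with the other islet markers below. Their summed level ran from 121200 to 240900 normalized counts in CD24negTomato+ cells, from 193000 to 324000 in CD24+Tomato+ cells and up to 9202 in Tomatoneg cells, and none was at 0 throughout a group. Their part in the result was not tested.

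Of 16 glucose sensing and insulin secretion genes, 2 rose and 0 fell in CD24negTomato+ cells (0.999% of all genes rose), and 4 rose with the block (4.34%). Those past the threshold were Snap25, a membrane fusion protein (156.9, 276 and 111 normalized counts, against 1.21, 6.80 and 0, log2 fold change 6.04, limma adjusted P = 0.0361), and Syt7, a calcium sensor of release (2.67, 0.0172). Each Tomatoneg value of Snap25 was under the filter of 10, so it was tested only because its CD24negTomato+ libraries were high. The median of the 16 was 2.65. In CD24+Tomato+ cells, 11 of 16 rose and 0 fell, against 8.02% of all genes higher. With the block, 14 rose (10.8% of all genes) and 1, the glucose transporter Slc2a2, fell. Among the largest were Kcnj11, a subunit of the ATP-gated potassium channel, with 6.93 (limma adjusted P = 0.0101), and Snap25 with 6.62 (0.00983). Kcnj11 was listed at 0 in Tomatoneg replicate 1, and had 5.80 without it (limma adjusted P = 0.00293). Without Tomatoneg replicate 1, 8 of 15 tested passed in CD24negTomato+ and 15 of 16 in CD24+Tomato+ cells (7.88% and 17.8% of all genes did). Without CD24negTomato+ replicate 1, 2 or 3, 0 passed, beside 20, 18 and 45 of all genes. Without CD24+Tomato+ replicate 1, 2 or 3, 5, 2 and 4 did, beside 669, 168 and 329 of all genes.

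Of 18 islet lineage transcription factors, 17 were tested and 0 passed the threshold in CD24negTomato+ cells in limma (1.32% of all genes did). With the block 4 passed (Neurod1, Insm1, Foxa2 and Glis3), all higher, as were 4.34% of all genes. The largest log2 fold changes were 5.83 for Glis3, an activator of insulin transcription (limma adjusted P = 0.0540), and 4.43 for Neurod1, which acts downstream of Neurog3 (0.0926). The smallest was -2.26, for Neurog3 itself, the endocrine progenitor factor (0.126). The CD24+Tomato+ comparison called 14 of 17 higher and 0 lower, with a median of 3.69, led by Rfx6 (6.97, limma adjusted P = 0.0203), St18 (6.34, 0.0321) and Glis3 (6.27, 0.0191), against 8.02% of all genes higher. All 3 were listed at 0 in Tomatoneg replicate 1, and had 5.33, 5.04 and 5.71 without it (limma adjusted P = 0.00407, 0.0302 and 0.0191). Neurog3 had 14.6, 19.6 and 41.2 normalized counts in CD24negTomato+ libraries, below each Tomatoneg value of that table (80.2, 123 and 147), whereas it had 1319, 1345 and 1364 in CD24+Tomato+ libraries against 102, 149 and 182. In CD24negTomato+ cells 5 factors passed without Tomatoneg replicate 1, beside 7.88% of all genes. Among them were Glis3 (5.35), Neurod1 (5.50) and Neurog3, which fell by 2.51 (limma adjusted P = 0.0295, 0.0183 and 0.0468). Without Tomatoneg replicate 2, 2 factors passed, beside 130 of 13382 genes. Without CD24+Tomato+ replicate 1, 2 or 3, 6, 2 and 4 passed in CD24+Tomato+ cells, beside 669, 168 and 329 of all genes.

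**Figure D3:**
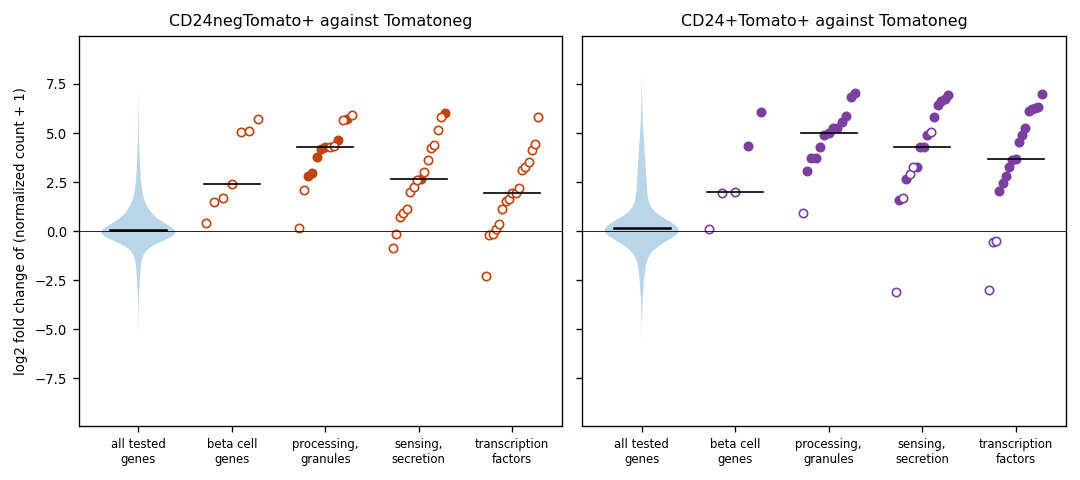
Log2 fold changes of (normalized count + 1) of tested genes in each list. Filled points passed the threshold in limma, open points did not, black lines are medians, and the shaded shape is the distribution over all tested genes (median 0.08 on the left, 0.16 on the right). The medians of processing and granule genes lie at 4.28 and 5.01, and no transcription factor on the left is filled, against 14 on the right.

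Markers of other islet and pancreatic cells were read beside the insulin genes. Of 9 markers of other islet cell types, 5 were tested in CD24negTomato+ cells and 2 rose, both hormones (0.999% of all genes rose). With the block 4 rose (4.34% of all genes) and 1, Sst, fell. Gcg, which yields glucagon or, in the intestine, GLP-1, had 7252, 16870 and 15870 normalized counts, against 460, 1528 and 585 in Tomatoneg libraries (log2 fold change 4.07, limma adjusted P = 0.0159). Ppy, pancreatic polypeptide, had 176, 435 and 1827 (limma adjusted P = 0.0101). It was listed at 0 in all 3 Tomatoneg libraries and so entered the filter only through its CD24negTomato+ libraries. Its values stood in the same order as those of Ins2 in CD24negTomato+ libraries and likewise peaked in replicate 3. Sst, somatostatin, had 209, 226 and 53.4, against 862, 1495 and 259 (log2 fold change -2.34, limma adjusted P = 0.187, and 0.0134 with the block). All 6 tested markers rose in CD24+Tomato+ cells (8.02% of all genes did), among them Sst (59240, 62670 and 30730 normalized counts), Gcg (25220, 32480 and 31100) and Ttr, transthyretin (920, 887 and 791). Ppy had 145, 71.5 and 314 there. The 9 markers summed to between 8264 and 18390 normalized counts in CD24negTomato+ cells, to between 63800 and 97180 in CD24+Tomato+ cells and to at most 3231 in Tomatoneg cells. Irx1 was at 0 in all libraries, and Irx2, Gc and Ppy were at 0 in Tomatoneg libraries.

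Of 15 acinar genes, which encode digestive enzymes and their cofactors, 13 were tested in CD24negTomato+ cells. There 0 passed the threshold in limma and 0 under the block, beside 1.32% and 7.3% of all genes. In CD24+Tomato+ cells 1 of 15 passed, Clps, and 7 did with the block, beside 12.9% and 20.8% of all genes. Their sum ran from 1887 to 2322 normalized counts in CD24negTomato+ libraries, from 678 to 1357 in the Tomatoneg libraries of that table and from 6222 to 20710 in CD24+Tomato+ libraries. Colipase (Clps) made up 60% to 95% of each sum. The 14 others, a set made after the values were seen, had 195, 132 and 754 normalized counts in CD24negTomato+ libraries, against 139, 311 and 322 in Tomatoneg, and 1163, 746 and 6813 in CD24+Tomato+ libraries.

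Within each Tomato+ population, replicate 3 was the highest library for these 14 genes and for both insulin genes. Across populations the order was different, in that CD24+Tomato+ replicate 3 had the higher sum of the 14 and CD24negTomato+ replicate 3 the more insulin transcript. Ctrb1, chymotrypsinogen, had 43.9, 6.03 and 135 normalized counts in CD24negTomato+ libraries, against 0, 40.0 and 27.5. Amy2a5, amylase, had 0.944, 27.4 and 87.2, against 74.9, 2.17 and 33.2. In CD24+Tomato+ libraries Ctrb1 had 157, 105 and 1161 and Amy2a5 had 289, 43.4 and 1274. Per the methods, attached pancreas was dissected away before the cells were isolated, and the cells were stained for Epcam and CD24 for the sort. The part of pancreatic RNA in the insulin values was not tested.

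**Figure D4:**
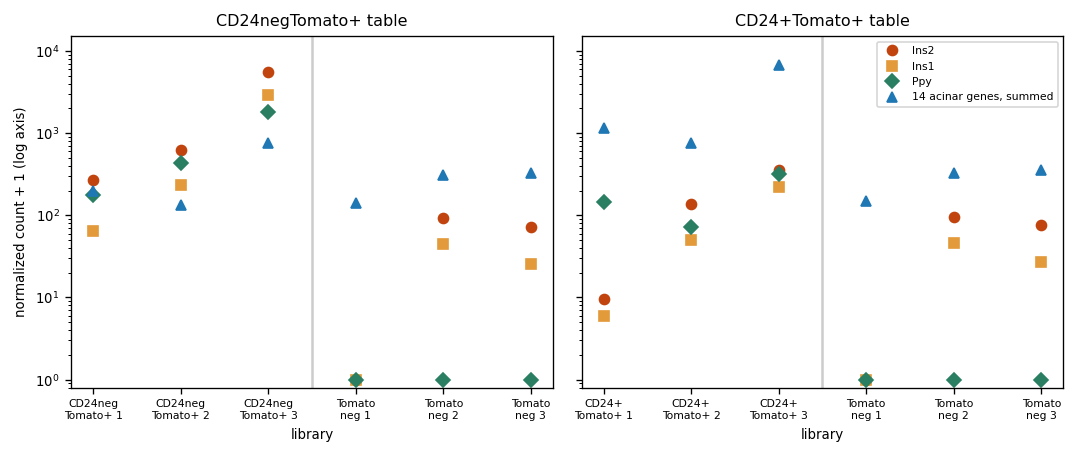
Normalized counts plus 1 (log axis) of Ins2, Ins1, Ppy and the sum of 14 acinar genes (all of the list but Clps) in the 6 libraries of each table, labelled by population and replicate. Ppy is at 0 in all Tomatoneg libraries. In CD24negTomato+ replicate 3, Ins2 (5471) exceeds the acinar sum (754), and in CD24+Tomato+ replicate 3 the acinar sum (6813) exceeds Ins2 (358).

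The genes of the table whose profiles over the 6 libraries were nearest to that of Ins2 were found by the mean absolute difference of centred log2 values. In the CD24negTomato+ table they were Ins1 (0.50), Gna14 (0.77), Disp2 (0.999), Nfasc (1.06) and Fxyd6 (1.06), all listed at 0 in Tomatoneg replicate 1. Gna14, a G protein alpha subunit, had 87.0, 170 and 311 normalized counts, against 0, 27.2 and 21.5, and so also peaked in replicate 3. The nearest other members were Ucn3 at rank 403 and G6pc2 at rank 718, and Pdx1 was at rank 3587. In the CD24+Tomato+ table the nearest were Ins1 (0.44), Gm5616 (0.64), Ftl1-ps1 (0.81), Rad51b (0.84) and Gm15542 (0.84), again all listed at 0 in Tomatoneg replicate 1, with Ucn3 at rank 6768 and Iapp at rank 11532. Without that library the nearest in the CD24negTomato+ table were Impg2 (0.30), Ins1 (0.32), Pcsk2 (0.32), Fkbp1b (0.64) and Kcnh7 (0.67), with Iapp at rank 12, G6pc2 at rank 30, Nkx6-1 at rank 168 and Ucn3 at rank 443. In the CD24+Tomato+ table they were Ins1 (0.31), Gm8624 (0.46), Gm49358 (0.54), Rpl19-ps11 (0.59) and Gm5616 (0.62), with Iapp at rank 13334 and Ucn3 at rank 13447. The points of a profile share their libraries and scaling.

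Checked against their labels, the libraries held intestinal epithelial RNA. The 6 epithelial markers summed to 172400 to 338400 normalized counts in all libraries, and 7 of 7 goblet cell markers rose in both Tomato+ populations. Paneth cell markers summed to 18220 to 45340 in CD24negTomato+ libraries, where 0 of 7 passed and 4 were lower with the block, and to 464800 to 1901000 in CD24+Tomato+ libraries, where 7 of 7 rose. Tuft cell markers summed to 332 to 375 in CD24negTomato+ libraries (1 of 4 fell, 4 of 4 with the block, and Il25 was at 0) and to 11290 to 13620 in CD24+Tomato+ libraries (5 of 6 rose), against 1044 to 1848 in Tomatoneg libraries. Lymphocyte markers fell in 2 of 7 tests for CD24negTomato+ cells (4 with the block) and in 6 of 7 for CD24+Tomato+ cells, with 1191 to 3694 in Tomatoneg and 190 to 310 in Tomato+ libraries. Of all tested genes, 0.999% were called higher and 0.32% lower in CD24negTomato+ cells (7.3% in either direction with the block). In CD24+Tomato+ cells 8.02% were called higher and 4.89% lower. The part of these cell types in the values of the beta cell genes was not tested.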

How the data were processed

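Bulk RNA-Seq of 9 libraries was analysed from 2 deposited tables. Per the labels and methods, poly-A mRNA was sequenced on an Illumina NovaSeq instrument, and the submitters' processing notes name bcl2fastq 2.19, kallisto 0.44.0, sleuth, DESeq2 and GRCm38. The deposited values are a signal, which the authors made from gene counts estimated by kallisto and normalized with DESeq2, separately in each table of 6 libraries. Both tables hold the 3 Tomatoneg libraries, with median ratios of 1.078, 1.024 and 1.050 between them. These ratios varied by gene (5th to 95th percentiles from 0.936 to 1.177 over the 3 libraries), so the scaling was not by 1 factor a library alone, how is not given in the sources used here, and tests stayed within a table. Whole reads were not recovered (16.9% to 43.7% of low values lay within 0.02 of a whole multiple), and depth was estimated from the commonest low value, taken as 1 read.

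Genes with a mean of at least 10 were tested with limma 3.58.1 (R 4.3.3, eBayes with trend) on log2(normalized count + 1), two-sided, with Benjamini-Hochberg adjustment over all tested genes, after a test on simulated data. Genes below the filter had an exact permutation test. Same-numbered libraries deviated together (r of 0.18 to 0.38 across genes, -0.36 to -0.03 for different numbers), so the numbers of the labels were used as a block in an alternative fit. The 9 genes and all lists were chosen with earlier results of these data known. Named were the 9 genes, Foxo1, the 3 largest rises past the threshold of each pathway list (or the 2 largest and 2 smallest fold changes where none passed), the 3 highest other islet and acinar genes and the 5 profiles nearest to Ins2, of which some list genes are not reported here. Other genes, named to explain a count, were chosen after their values were seen. Summaries used Python 3.11.15 and pandas 2.3.3. Alternatives were pseudocounts of 0.1 and 10, other filters, equal library totals, quantile normalization, the block and libraries left out. Profiles and list genes without Tomatoneg replicate 1 were added after the data were seen.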

Additional observations from a re-analysis of the deposited data

How the results depend on the processing

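In CD24negTomato+ cells, 0 of the beta cell genes passed as reported, 1 with a pseudocount of 10, 1 with quantile normalization and 3 with the replicate block, which changed no other call among these genes. Processing and granule genes went from 7 to 11 with a pseudocount of 10 and 11 with the block, sensing and secretion genes from 2 to 1, 6, 1 and 4 (pseudocount of 0.1, pseudocount of 10, no filter, block), transcription factors from 0 to 4, 2 and 4 (pseudocount of 10, quantile, block), and all genes from 177 to 112, 415, 276 and 979 (pseudocounts of 0.1 and 10, quantile, block). In CD24+Tomato+ cells, a pseudocount of 0.1 gave 6 sensing genes in place of 11 and 8 transcription factors in place of 14, and the block gave 2885 genes in place of 1791. With libraries left out, the counts ranged from 0 to 1, 0 to 11, 0 to 8, 0 to 5 and 0 to 1059 in CD24negTomato+ cells and from 0 to 2, 0 to 13, 0 to 15, 0 to 14 and 3 to 2478 in CD24+Tomato+ cells, for the beta cell genes, processing, sensing, transcription factors and all genes. Without replicate 2 of both groups, 0 and 3 genes passed. Equal library totals gave 98 higher and 60 lower calls in CD24negTomato+ cells, where 134 and 43 were reported, and quantile normalization gave 904 and 824 in CD24+Tomato+ cells, where 1113 and 678 were reported. The Pdx1 fold change in CD24+Tomato+ cells turned from 0.09 to -0.12 with quantile normalization and, with libraries left out, to between -0.13 and 0.37, with -0.13 without CD24+Tomato+ replicate 1, -0.10 without Tomatoneg replicate 3 and -0.01 without replicate 2, and that of Ins2 ranged from -0.13 (without Tomatoneg replicate 1) to 3.51. The cause of these shifts was not tested. Genes near the limit of detection (Slc30a8, Mafa, G6pc2) cannot be ranked at this depth.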
